A study of Mus musculus with 24 samples.

Results

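Wild-type (WT) muscle stem cells (MuSCs) expanded in a dish as primary myoblasts were set against WT MuSCs sorted directly from resting muscle (FiMuSCs). The comparison uses 6 of the 24 libraries of the series, 3 WT myoblast libraries and 3 WT FiMuSC libraries, chosen by their labels. All 6 came from hindlimb muscle of mice that carry the Pax7-nGFP reporter, in which PAX7+ cells are green. The WT strain is C57BL/10ScSnJ in the methods of the study, and neither age, passage number nor the number of animals behind a library is given in the sources used here. Myoblasts were purified with magnetic beads as lineage-negative, α7-integrin-positive cells and grown on collagen in Ham's F10 with fetal bovine serum and basic FGF. FiMuSCs were sorted by flow cytometry as GFP+ ITGA7+ cells free of CD31, CD45, SCA1 and CD11b. Their RNA was extracted with PicoPure, and that of myoblasts with NucleoSpin RNA II, so the kit, the isolation route and the culture cannot be told apart. The same contrast in *mdx* cells, which lack dystrophin, and WT MuSCs sorted 3 days after cardiotoxin injury (AMuSCs, PicoPure) serve below as side comparisons.

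MuSCs lie between the myofibre membrane and its basal lamina and stay out of the cell cycle under PAX7, Notch and calcitonin receptor signalling. Injury or dissociation activates them: stress genes and *Myod1* come on, the cells enter the cycle, and their progeny, the myoblasts, divide until *Myog* and the contractile genes mark commitment to fusion. Dissociation of muscle itself is known to switch on immediate early and heat shock genes within the time a sort takes.

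The defining genes of both states followed the labels. *Pax7*, the transcription factor of the stem cell, stood at 167, 147 and 172 CPM (counts scaled to library size) in WT myoblasts 1, 2 and 3, against 2074, 1534 and 1474 CPM in WT FiMuSCs 1, 2 and 3. Library values below are given in this order, after scaling of the 6 libraries together. *Myod1*, the determination factor of activated myogenic cells, ran the other way, at 1502, 1424 and 1544 CPM in myoblasts and 163, 164 and 148 CPM in FiMuSCs. *Des*, the intermediate filament of the lineage, was at 452 to 736 CPM in myoblasts and 525 to 581 CPM in FiMuSCs. The 3 myoblast libraries held 58343353 to 60728580 estimated counts and the 3 FiMuSC libraries 37280196 to 44436564. At least 10 counts were reached by 16873 to 17119 genes in myoblasts and by 18678 to 19081 in FiMuSCs. Transcripts annotated as retained introns took 4.31 to 4.36% of counts in myoblasts and 7.32 to 7.39% in FiMuSCs, and 6.46 to 6.65% in the AMuSCs, whose RNA was made with the same kit as that of FiMuSCs. In bulk samples, fewer cells of a type and less RNA per cell cannot be told apart, and p-values measure the spread between these libraries, which may be technical.

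Most of the transcriptome differed. Of 19329 genes tested, 6782 (35.1%) were higher in WT myoblasts than in WT FiMuSCs and 7583 (39.2%) were lower (edgeR quasi-likelihood test, Benjamini-Hochberg adjusted p below 0.05), while 14750 had an unadjusted p below 0.05. With a change of more than 2-fold required as well, 4049 (20.9%) were higher and 5973 (30.9%) lower, and 654 and 1857 changed more than 16-fold. Tested against a 2-fold change rather than against none, 7730 of the 19329 genes were called, 3140 higher and 4590 lower. List counts given below against a 2-fold change stand against these numbers. The median over all genes was -0.14 on the log2 scale, and moved to -0.39 with library totals alone and to -0.41 with upper-quartile scaling, which cut the higher share of the calls to 38.9% and 38.2%, against 47.2%. The counts for gene lists below stand against these shares, so that a list with near 35.1% of its members higher and 39.2% lower is no different from the background. Many list counts dropped with the test against a 2-fold change, also in some lists for which that second count is not given.

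**Figure D1:**
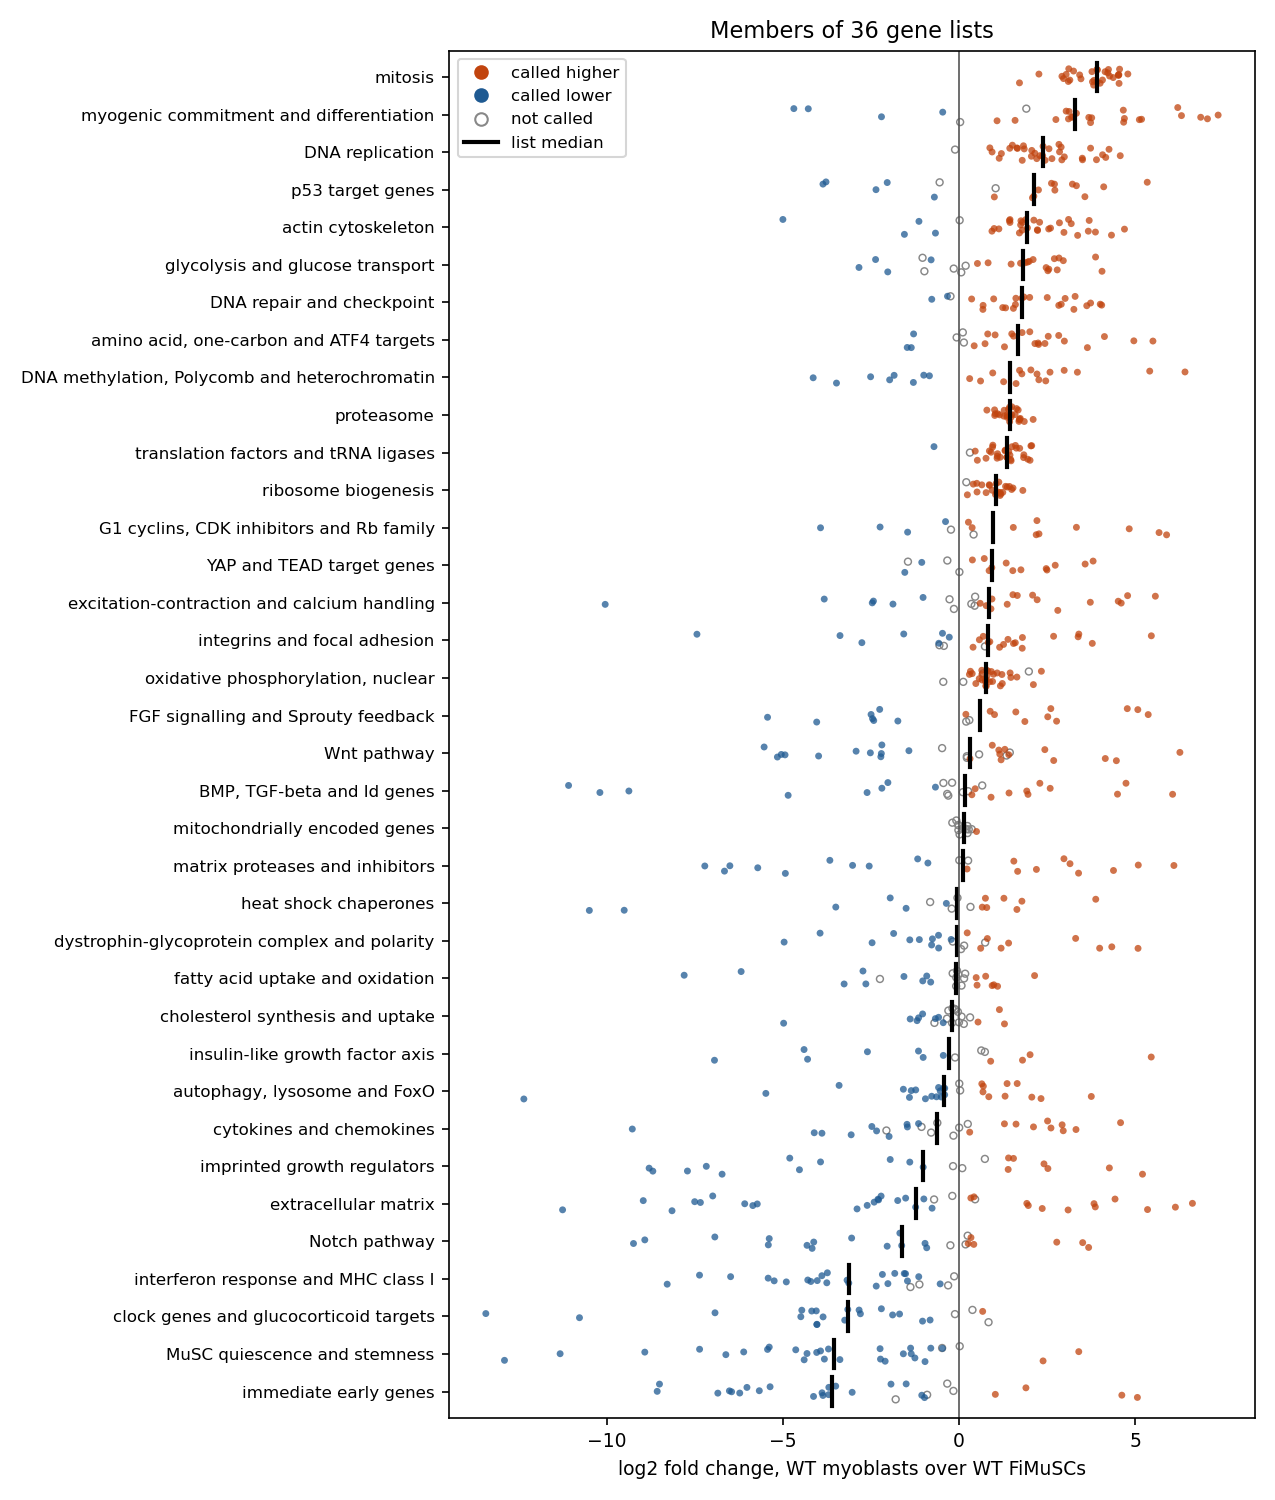
Log2 fold change of WT myoblasts over WT FiMuSCs (x axis) for each tested member of 36 gene lists (rows, ordered by list median). Filled points passed the test (red higher, blue lower), open points did not, and black bars are list medians, from -3.6 for immediate early genes to 3.91 for mitosis.

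The genes of the resting stem cell were low in culture. Of 30 quiescence and stemness genes, 26 fell and 2 rose in WT myoblasts, with a median of -3.55 on the log2 scale. *Pax7* itself fell by 3.38 ± 0.16 (log2, SE; edgeR adjusted p = 4.68e-06). *Calcr*, which encodes the calcitonin receptor of quiescent MuSCs, was nearly silent, at 0.245, 0.0562 and 0.089 CPM in myoblasts against 299.6, 390 and 327 CPM in FiMuSCs (log2 fold change -11.33 ± 0.35, adjusted p = 2.14e-06). *Chrdl2*, which encodes a secreted BMP-binding protein, showed the same picture at 0.0944, 0.0374 and 0 CPM in myoblasts against 272, 429 and 357 CPM in FiMuSCs (-12.91 ± 0.46). The sialomucin gene *Cd34* was at 2.83, 2.21 and 6.35 CPM in myoblasts and 361, 221 and 211 CPM in FiMuSCs. *Spry1*, an inhibitor of receptor tyrosine kinase signalling needed for the return to quiescence, was at 25.7, 26.2 and 15.1 CPM in myoblasts and 1157, 845 and 903 CPM in FiMuSCs (-5.44 ± 0.28). No library of one group reached into the other for any of these 5 genes, as was the case for 15554 of the 19329 genes tested (80.5%).

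Several members stood outside this pattern. *Pax3*, the paralogue of *Pax7*, did not separate the groups, at 10.7 to 13.1 CPM in myoblasts and 10.7 to 13.6 CPM in FiMuSCs (0.02 ± 0.15, adjusted p = 0.919). The 2 members that rose were the heparan sulfate proteoglycan gene *Sdc3*, at 489, 518 and 493 CPM in myoblasts against 70.3, 35.2 and 36.7 CPM in FiMuSCs, and the neuregulin receptor gene *Erbb3*, at 9.89 to 35.4 CPM against 3.06 to 5.29 CPM. *Foxo1* and *Foxo3*, transcription factors that keep stem cells quiescent, did follow the pattern and fell by 1.36 ± 0.19 and 1.58 ± 0.36, less than the list median.

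The myogenic programme had advanced unevenly. Of 28 commitment and differentiation genes, 22 rose in WT myoblasts, 4 fell and the median was 3.28. *Myod1* rose by 3.23 ± 0.08 (adjusted p = 1.08e-06), whereas *Myf5*, the other determination factor and the one already on in many resting MuSCs, fell to 22.5, 11.2 and 26 CPM in myoblasts, against 534, 468 and 539 CPM in FiMuSCs (-4.69 ± 0.34). *Myf6*, the factor of mature fibres, was at 0.0534 to 0.245 CPM in myoblasts and 2.25 to 3.23 CPM in FiMuSCs. *Ckm*, muscle creatine kinase, fell by 2.20 ± 0.77 (adjusted p = 0.0372) but lost the call without any 1 of 4 of the libraries (adjusted p up to 0.108), and without myoblast library 2 it fell by 3.44. The fourth, *Mef2d*, which encodes a partner of the MyoD family and is named after its value was seen, fell by 0.46 ± 0.13.

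Myoblast library 2 carried far more of the differentiation genes than its 2 partners. *Myog*, which drives terminal differentiation, was at 46.9, 267 and 58.6 CPM in myoblasts and 16.5, 17 and 11.7 CPM in FiMuSCs. *Mymk*, the fusion protein myomaker, was at 12.6, 76.2 and 13.4 CPM in myoblasts and 1.51, 1.35 and 1.08 CPM in FiMuSCs. *Myh3*, embryonic myosin heavy chain, was at 142, 973 and 145 CPM in myoblasts and 6.53, 1.87 and 1.15 CPM in FiMuSCs. Every myoblast library was above every FiMuSC library for all 3 genes, and 80.5% of all genes tested had no overlap in one direction or the other. Without myoblast library 2, *Myog* was higher by 1.83 in place of 3.04 (log2), *Mymk* by 3.32 in place of 4.70, *Myh3* by 5.52 in place of 7.05 and *Acta1*, skeletal α-actin, by 2.18 in place of 3.74, each still called, and the list had 22 higher, 4 lower and a median of 2.57. The fetal troponin gene *Tnnt2*, at 159, 384 and 143 CPM in myoblasts against 2.78, 1.12 and 0.327 CPM in FiMuSCs, was among the 12 largest increases in the data with all libraries (7.36 ± 0.82) and rose by 6.78 without that library.

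**Figure D2:**
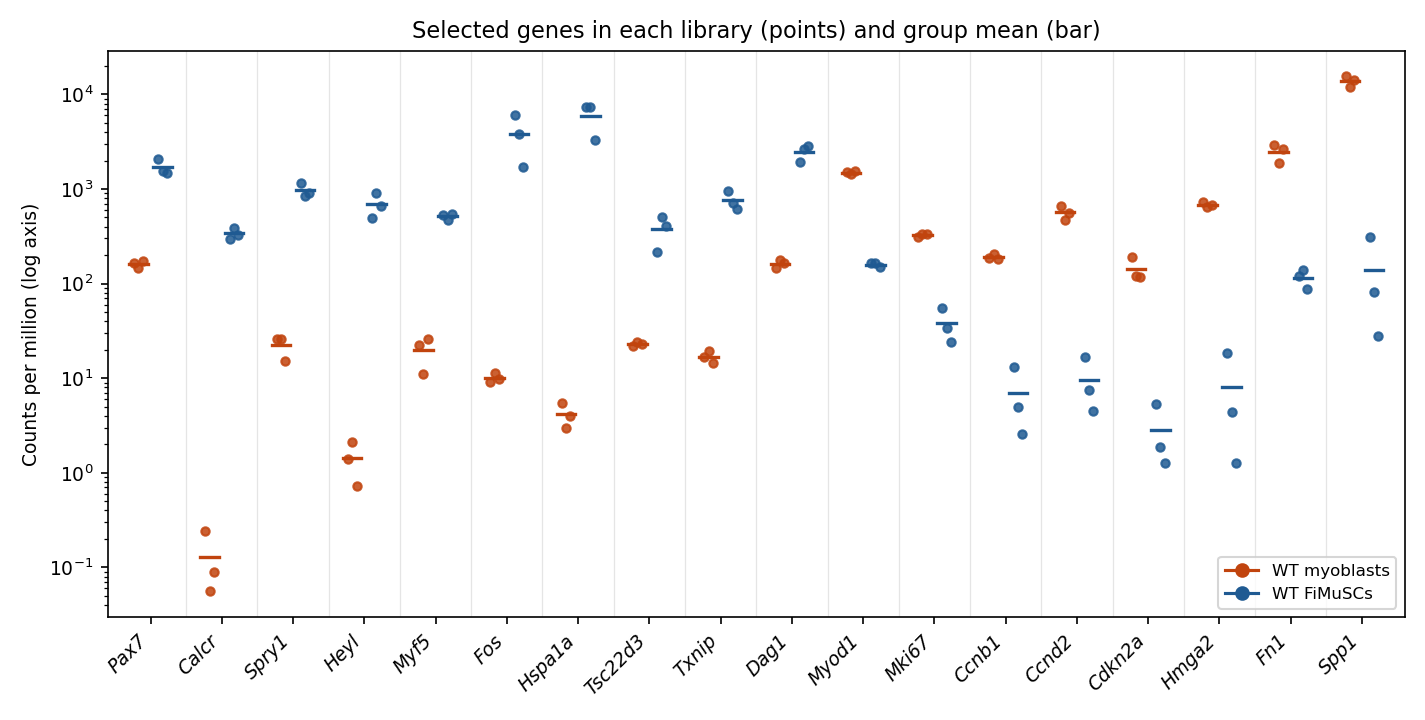
CPM on a log axis of 18 genes in each of the 3 WT myoblast (red) and 3 WT FiMuSC (blue) libraries, with bars at the group means. The first 10 genes were lower in every myoblast library, from *Pax7* to *Dag1*, and the last 8, from *Myod1* to *Spp1*, were higher.

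Cell cycle genes rose as a block. All 31 mitosis genes and 34 of 35 DNA replication genes rose in WT myoblasts, with medians of 3.91 and 2.38. None fell in the edgeR test, also at an unadjusted p below 0.05, and DESeq2 gave none either, whereas 1 replication gene did with library totals, with upper-quartile scaling, with the transcript length offset and with protein-coding genes only. *Mki67*, a marker of dividing cells, was at 312, 337 and 337 CPM in myoblasts and 55.6, 34.3 and 23.9 CPM in FiMuSCs (3.12 ± 0.31, adjusted p = 0.000167). *Ccnb1*, the cyclin of mitotic entry, was at 186, 207 and 182 CPM in myoblasts and 13.3, 4.97 and 2.57 CPM in FiMuSCs (4.79 ± 0.60). *Rrm2*, a subunit of the enzyme that makes deoxynucleotides, was at 439, 473 and 413 CPM in myoblasts and 37.6, 20.6 and 15.6 CPM in FiMuSCs. The myoblast libraries agreed closely on these genes, while FiMuSC library 1 was the highest of its group for each. The largest replication change was *Ccne1*, cyclin E1, at 88.2, 77.5 and 74.0 CPM in myoblasts against 5.81, 2.61 and 1.66 CPM in FiMuSCs (4.58 ± 0.46).

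For a pair of mitosis genes and a replication gene of this block, 160 bases upstream of the RefSeq start (assembly GRCm38.p6) are printed. Each is on its coding strand, which is the minus strand of the chromosome. The 3 were chosen after their values were seen, for matches to the motifs searched and because the stretch touches no annotated exon. *Top2a*, topoisomerase II, rose by 3.83 ± 0.30, *Ccnb2*, cyclin B2, by 3.79 ± 0.33, and *Mcm6*, a subunit of the replicative helicase, by 2.64 ± 0.19 (log2, SE). Capitals mark CCAAT (the NF-Y box) or its reverse complement ATTGG, the palindrome TTCGAA and the letters TTCAAA, which are TTTGAA on the other strand (both the cell cycle genes homology region, CHR), and TTGGCGC (an E2F site).
Top2a, chr11:99024190-99024349: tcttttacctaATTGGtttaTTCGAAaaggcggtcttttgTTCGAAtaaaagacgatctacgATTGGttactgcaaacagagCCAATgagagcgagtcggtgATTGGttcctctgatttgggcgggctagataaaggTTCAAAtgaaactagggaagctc
Ccnb2, chr9:70421555-70421714: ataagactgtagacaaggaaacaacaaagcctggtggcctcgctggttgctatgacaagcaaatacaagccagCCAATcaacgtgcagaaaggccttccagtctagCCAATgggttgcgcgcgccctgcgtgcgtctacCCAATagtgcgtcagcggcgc
Mcm6, chr1:128359706-128359865: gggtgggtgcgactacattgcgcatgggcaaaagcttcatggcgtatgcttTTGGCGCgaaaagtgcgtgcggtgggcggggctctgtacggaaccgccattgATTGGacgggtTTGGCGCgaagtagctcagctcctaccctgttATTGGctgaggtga

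Over the windows from 250 bases before to 50 after each start, both strands searched, CCAAT was present in 20 of 25 windows of mitosis genes (80.0%), in 53.1% of 32 windows of replication genes and in 37.4% of all 32851 windows. A CHR (either TTTGAA or the palindrome TTCGAA) was present in 76.0% of mitosis windows, 18.8% of replication windows and 19.2% of all. E2F letters (TTGGCGC or the variant TTCCCGC) were present in 24.0% of mitosis windows, 46.9% of replication windows and 6.81% of all. CCAAT and the E2F letters can overlap by 4 bases through ATTGG. Windows were found for 25 of the 31 mitosis genes and 28 of the 35 replication genes. For the quiescence and immediate early lists, windows covered 19 of 30 and 22 of 28 genes. That is fewer than 80% of each list, so those searches are incomplete. In their windows CCAAT was present in 37% and 46.2%, a CHR in 11.1% and 11.5%, and the E2F letters in 7.41% and 19.2%. A match is a description of letters and not a measured site.

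The regulators of the G1 phase moved in both directions. *Ccnd2*, cyclin D2, was at 664, 469 and 563 CPM in WT myoblasts against 16.6, 7.52 and 4.49 CPM in WT FiMuSCs (5.89 ± 0.54), and *Ccnd1* was at 968 to 1260 CPM against 148 to 309 CPM. Inhibitors of the cyclin-dependent kinases split by gene. *Cdkn1b* (p27), an inhibitor of resting cells, fell to 38, 37.9 and 40.4 CPM in myoblasts, against 178, 181 and 191 CPM in FiMuSCs. *Cdkn1a* (p21) rose by 3.33 ± 0.12, and *Cdkn2a*, the Ink4a/Arf locus, was at 190, 121 and 118 CPM in myoblasts against 5.31, 1.85 and 1.29 CPM in FiMuSCs (5.68 ± 0.58, adjusted p = 0.000194). *Cdkn2b* (p15) rose by 4.83 ± 0.25, and the retinoblastoma relative *Rbl2* (p130) fell by 1.46 ± 0.07. Among 19 p53 target genes 12 rose, 5 fell and the median was 2.12. *Ccng1*, cyclin G1, was at 798, 672 and 755 CPM in myoblasts and 57.7, 36.7 and 34.7 CPM in FiMuSCs, and *Mdm2*, the ubiquitin ligase of p53, rose by 2.12 ± 0.14. *Sesn1* fell by 3.78 ± 0.17 and *Btg2*, which is also an immediate early gene, by 3.87 ± 0.54.

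Immediate early genes, which dissociation is known to induce, were mostly lower. Of 28 immediate early genes 20 fell and 4 rose in WT myoblasts, with a median of -3.6 (log2). *Fos* was at 9.13, 11.3 and 9.80 CPM in myoblasts and 6017, 3794 and 1702 CPM in FiMuSCs (-8.57 ± 0.58, adjusted p = 3.26e-05), and *Egr1* at 48.6, 72.7 and 51.8 CPM in myoblasts and 7722, 3558 and 1712 CPM in FiMuSCs. *Atf3* was at 2.79 to 3.68 CPM in myoblasts and 224, 143 and 16.8 CPM in FiMuSCs. The FiMuSC libraries differed among themselves in all 3 genes, with library 1 highest and library 3 lowest, and every one of them stayed above the myoblasts. The 4 members that rose included *Fosl1*, the late AP-1 subunit FRA1, at 113, 95.8 and 88.4 CPM in myoblasts against 6.63, 1.62 and 0.701 CPM in FiMuSCs, and the nuclear receptor gene *Nr4a2* (4.62 ± 0.71). The others were *Gadd45g*, a growth arrest gene (1.90 in log2), and *Ier5*, named after its value was seen (1.03 ± 0.34). *Myc* did not pass the test, at 74.7 to 93.1 CPM in myoblasts and 70.3 to 139 CPM in FiMuSCs (-0.34 ± 0.24), but was called lower without FiMuSC library 3 (-0.56, adjusted p = 0.0121).

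Heat shock genes moved in both directions. The inducible *Hspa1a* was at 5.49, 2.98 and 3.95 CPM in WT myoblasts against 7289, 7391 and 3262 CPM in WT FiMuSCs (-10.50 ± 0.53), and its neighbour copy *Hspa1b*, whose reads are hard to separate from it, at 9.66 to 13.6 CPM against 5256 to 10315 CPM. The largest increase was that of *Hspb8*, a small heat shock protein gene that stress also induces, at 60.8, 99.0 and 70.1 CPM in myoblasts against 7.28, 5.98 and 2.34 CPM in FiMuSCs (3.88 ± 0.44). *Hspd1*, the mitochondrial chaperonin, was at 903, 922 and 746 CPM in myoblasts and 270, 340 and 213 CPM in FiMuSCs, and *Hspa4* rose by 1.78 ± 0.14. In all, 7 of 17 members rose and 6 fell, near the background shares of 35.1% and 39.2%. Only 4 were called higher without FiMuSC library 1 or without the filter on low counts, and 3 against a 2-fold change.

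Notch keeps MuSCs quiescent, and its named target genes fell by unequal amounts. *Heyl* was at 1.42, 2.12 and 0.729 CPM in WT myoblasts against 490, 913 and 665 CPM in WT FiMuSCs (-8.93 ± 0.50), and *Hey1* at 1.83 to 3.39 CPM against 103 to 125 CPM. The target *Hes1* was at 67.4 to 76.5 CPM in myoblasts and 108 to 209 CPM in FiMuSCs (-0.97 ± 0.27, adjusted p = 0.0159), a call lost without myoblast library 2 (adjusted p = 0.0538). The receptors *Notch3* (-4.32 ± 0.18) and *Notch1* (-1.68 ± 0.13) fell as well. The ligand gene *Jag2* and *Hes6*, which antagonises HES1 and favours differentiation, rose by 3.68 ± 0.15 and 3.51 ± 0.13. *Mfng*, a glycosyltransferase that modifies Notch, had no count in any myoblast library against 1.08 to 2.38 CPM in FiMuSCs, at least 82.6-fold lower when 3 counts over the group are taken as its floor. Over 23 pathway genes 14 fell and 6 rose, and with library totals, with upper-quartile scaling or against a 2-fold change 3 rose.

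FGF pathway genes moved in both directions. *Fgfr1* and *Fgfr4*, receptors of MuSCs, fell to 211 to 230 CPM and 54.8 to 65.0 CPM in WT myoblasts, against 1212 to 1278 CPM and 870 to 1042 CPM in WT FiMuSCs. Among genes that ERK signalling induces, the feedback inhibitor gene *Spry1* fell by 5.44 ± 0.28, as given above. Others rose: *Dusp4*, a MAP kinase phosphatase, was at 269, 266 and 244 CPM in myoblasts and 12, 3.68 and 3.2 CPM in FiMuSCs, *Etv4* rose by 5.08 ± 0.40, *Dusp6* by 2.52 ± 0.18 and *Spry2* by 1.87 ± 0.15. *Etv5* was not called (0.29 ± 0.25, adjusted p = 0.321), although without FiMuSC library 1 it was (0.63, adjusted p = 0.00173). Of 20 members 11 rose and 7 fell.

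Several secreted factors and receptors were all but absent from one state. *Bmp6* and *Bmp4*, ligands of the BMP family, were at 0.107 to 0.472 and 0.178 to 0.340 CPM in WT myoblasts against 309 to 336 and 120 to 227 CPM in WT FiMuSCs. *Tgfbr3*, the co-receptor betaglycan, was at 0.245, 0.318 and 0.409 CPM in myoblasts against 670, 714 and 761 CPM in FiMuSCs (-11.09 ± 0.18). The BMP antagonist gene *Grem1* rose by 6.07 ± 0.82 and *Mstn*, myostatin, by 4.74 ± 0.42, although *Mstn* reached only 8.63 to 11.1 CPM in myoblasts. *Igf1* fell to 1.00 to 1.42 CPM in myoblasts, against 90.0 to 199 CPM in FiMuSCs, while the binding protein gene *Igfbp2* was at 72.4 to 133 CPM against 0.771 to 5.51 CPM. *Wnt5a*, a ligand of β-catenin-independent Wnt signalling, was at 171, 112 and 84.6 CPM in myoblasts against 2.46, 1.37 and 0.958 CPM in FiMuSCs (6.27 ± 0.45), and *Axin2*, a target of β-catenin, at 0.169 to 0.338 CPM against 10.3 to 11.5 CPM (-5.54 ± 0.31). Of 29 Wnt pathway genes 12 rose and 11 fell, of 26 BMP and TGF-β genes 11 rose and 8 fell, and of 14 insulin-like growth factor genes 4 rose and 7 fell. Against a 2-fold change 5 Wnt and 6 BMP and TGF-β genes were called higher, and of the insulin-like growth factor genes 2 were higher and 4 lower.

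Genes that follow circulating hormones and the day were lower in the dish. Of 23 clock genes and glucocorticoid targets, 19 fell and 1 rose in WT myoblasts (median -3.16). *Zbtb16*, a glucocorticoid target, had 3 counts over the myoblast libraries against 53.5, 240 and 406 CPM in WT FiMuSCs, a pooled ratio of 12830 (95% counting interval 4392 to 62230). *Tsc22d3* (GILZ) was at 22.1, 24.0 and 23.0 CPM in myoblasts and 216, 507 and 410 CPM in FiMuSCs (-4.04 ± 0.33). *Per1*, of the core clock, was at 16.7 to 20.0 CPM in myoblasts and 302 to 563 CPM in FiMuSCs, and *Npas2* fell by 10.78 ± 0.68. *Arntl*, the positive arm of the clock, fell by 1.04 ± 0.20. The 1 member that rose, *Cry1* (0.67 ± 0.12, adjusted p = 0.00182), was not called when transcript length was entered as an offset (-0.12, adjusted p = 0.846). FiMuSC library 1 was the lowest of its group for *Zbtb16*, *Tsc22d3* and *Fkbp5*, where library 1 had 73.7 CPM and the other FiMuSC libraries 219 and 324 CPM.

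Genes of translation and ribosome assembly mostly rose, by modest factors, whereas ribosomal protein genes took a smaller share of counts in WT myoblasts (3.47 to 3.74%) than in WT FiMuSCs (4.36 to 4.67%). Of 31 translation factors and tRNA ligases 29 rose and 1 fell (median 1.36), and of 25 ribosome biogenesis genes 24 rose (median 1.06). *Npm1*, nucleophosmin, was at 1500, 1464 and 1303 CPM in WT myoblasts against 476, 361 and 379 CPM in WT FiMuSCs. *Eif2s1*, the α subunit of eIF2, rose by 2.02 ± 0.07 and *Eef2*, elongation factor 2, fell by 0.71 ± 0.07. Against a 2-fold change, 19 translation and 9 ribosome biogenesis genes were called higher. *Polr1b*, a subunit of RNA polymerase I, rose by 0.50 ± 0.09, but was not called with the transcript length offset (-0.22, adjusted p = 0.105) or with library totals (0.25, adjusted p = 0.0569).

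Amino acid and sugar metabolism shifted with them. Of 26 amino acid, one-carbon and ATF4 target genes, 20 rose and 3 fell. *Phgdh*, the first enzyme of serine synthesis, was at 317, 262 and 275 CPM in WT myoblasts and 36.2, 35.4 and 35.9 CPM in WT FiMuSCs (2.99 ± 0.09). *Slc7a11*, the cystine transporter, was at 65.3, 78.1 and 62.2 CPM in myoblasts against 1.64, 1.71 and 1.17 CPM in FiMuSCs (5.51 ± 0.18), and *Asns*, asparagine synthetase, rose by 4.96 ± 0.65. Of 26 glycolysis genes 17 rose and 4 fell. *Hk2*, hexokinase 2, was at 96.6, 121 and 86.7 CPM in myoblasts against 7.67, 6.78 and 3.79 CPM in FiMuSCs, and *Ldha*, lactate dehydrogenase, rose by 2.71 ± 0.11. Glucose transporters split, *Slc2a1* rising by 2.47 ± 0.11 and *Slc2a3* falling to 3.13 to 3.78 CPM in myoblasts, against 21 to 28.4 CPM in FiMuSCs. *Txnip*, which restrains glucose uptake, was at 17, 19.2 and 14.7 CPM in myoblasts against 945, 719 and 617 CPM in FiMuSCs (-5.49 ± 0.21).

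Mitochondrial genes differed by genome. Of 35 nuclear genes of oxidative phosphorylation, 31 rose and none fell (median 0.77), and 8 were called higher against a 2-fold change. *Cycs*, cytochrome c, was at 79.3, 88.2 and 65.9 CPM in WT myoblasts and 15.5, 16.9 and 13.7 CPM in WT FiMuSCs, and *Cox5a* rose by 2.11 ± 0.10. Of the 13 mitochondrially encoded genes 1 was called, *mt-Nd6* (0.47 ± 0.11, higher), and 7 were called higher without FiMuSC library 1, whereas with library totals none was higher and 1 was lower. *mt-Co1*, a core subunit of complex IV, was at 7754 to 8942 CPM in myoblasts and 6697 to 9359 CPM in FiMuSCs (0.13 ± 0.14). Of 25 genes of fatty acid uptake and oxidation 7 rose and 9 fell, and with library totals or upper-quartile scaling 15 fell, while against a 2-fold change 1 was higher. The fatty acid translocase gene *Cd36* and the lipid carrier gene *Fabp4*, both also high in endothelium, were at 0.409 to 1.31 and 0.196 to 0.359 CPM in myoblasts against 36.2 to 71.8 and 44.7 to 82.5 CPM in FiMuSCs. Of 23 cholesterol genes 3 rose and 8 fell, which became 1 and 2 against a 2-fold change.

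The matrix around the cell changed composition. Of 35 extracellular matrix genes 20 fell and 12 rose in WT myoblasts. *Col15a1*, *Col5a3* and *Col6a2*, collagens of the niche and endomysium, were at 0.131 to 0.359, 1.07 to 1.55 and 0.786 to 0.818 CPM in myoblasts against 377 to 880, 467 to 883 and 185 to 257 CPM in WT FiMuSCs. The share that rose was near the background of 35.1%. Among matricellular and adhesive proteins, *Postn*, periostin, fell to 0.243 to 0.374 CPM in myoblasts, against 6.87 to 37.3 CPM in FiMuSCs (-5.86 ± 0.88), while others rose. *Spp1*, osteopontin, was at 15457, 12070 and 14043 CPM in myoblasts against 311, 81.9 and 27.8 CPM in FiMuSCs (6.63 ± 0.99, adjusted p = 0.00111). *Fn1*, fibronectin, was at 2895, 1878 and 2672 CPM in myoblasts and 120, 138 and 87.5 CPM in FiMuSCs, and *Tnc*, tenascin C, rose by 6.14 ± 0.71. *Col4a1*, of the basement membrane, fell by 1.00 ± 0.27. Metalloproteinases and their inhibitors were split, with 10 of 22 higher and 10 lower: *Timp1* rose by 6.10 ± 0.76 and *Timp3* fell by 6.66 ± 0.40.

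Adhesion and cytoskeleton genes rose. *Itga6*, the laminin receptor chain α6, was at 970, 780 and 1037 CPM in WT myoblasts against 32.7, 15.2 and 15.5 CPM in WT FiMuSCs (5.46 ± 0.38), *Itga3* rose by 3.40 ± 0.25 and *Itga8* fell by 7.44 ± 0.27, among 27 integrin and focal adhesion genes of which 17 rose and 7 fell. Of 34 actin cytoskeleton genes 29 rose and 4 fell (median 1.92). *Tpm1*, tropomyosin, was at 2554, 2132 and 2264 CPM in myoblasts and 163, 96.8 and 85.6 CPM in FiMuSCs, and *Actb*, β-actin, rose by 1.75 ± 0.07. *Tagln* fell to 34.6 to 53.1 CPM in myoblasts, against 105 to 147 CPM in FiMuSCs. Targets of YAP and TEAD, which answer to stiff substrates, were mostly higher, with 12 of 17 higher and 2 lower, though 4 were lower with DESeq2 and 5 with upper-quartile scaling. *Ankrd1* was at 1250, 984 and 1327 CPM in myoblasts against 148, 75.1 and 74.6 CPM in FiMuSCs. The other classical targets did not follow: *Cyr61* was lower (-1.06 ± 0.38, adjusted p = 0.0405), and lost the call without any 1 of 5 of the 6 libraries (adjusted p up to 0.127), and *Ctgf* was not called (-1.45 ± 0.56, adjusted p = 0.0535), though it was called lower under 9 of 17 alternatives, DESeq2 among them (adjusted p = 0.0035).

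Dystrophin and its partner in the membrane were low in WT myoblasts. *Dmd* was at 5.66, 14.5 and 5.02 CPM in myoblasts and 269, 275 and 243 CPM in WT FiMuSCs (-4.97 ± 0.46, adjusted p = 0.000124). *Dag1*, dystroglycan, which links dystrophin to laminin, was at 145, 176 and 163 CPM in myoblasts and 1946, 2669 and 2851 CPM in FiMuSCs (-3.95 ± 0.17). *Utrn*, utrophin, fell by 1.13 ± 0.08. *Cav3*, caveolin 3, was highest in myoblast library 2, at 5.60, 25.7 and 4.89 CPM in myoblasts, against at most 0.444 CPM in FiMuSCs. Of 24 members of the complex and its polarity partners 9 rose and 11 fell, or 5 and 4 against a 2-fold change.

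Imprinted genes, which control fetal and postnatal growth, changed in opposite directions. *Meg3*, the maternally expressed RNA of the *Dlk1* locus, was at 5.08, 1.07 and 10.7 CPM in WT myoblasts against 1800, 2790 and 2429 CPM in WT FiMuSCs (-8.70 ± 0.92, adjusted p = 0.000224). *H19* was at 1335, 3675 and 3049 CPM in myoblasts against 114, 175 and 130 CPM in FiMuSCs (4.27 ± 0.43), whereas *Igf2* of the same cluster was not called, at 107, 455 and 196 CPM and 174, 147 and 135 CPM. *Grb10*, a brake on insulin signalling, fell by 8.80 ± 0.51, *Mest* rose by 2.52 ± 0.51 and *Peg3* was not called (0.09 ± 0.12). In the list 11 of 21 fell and 7 rose, and 7 fell when only protein-coding genes were tested, which leaves the non-coding members out.

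Chromatin genes were mostly higher. *Dnmt1*, the maintenance DNA methyltransferase, rose by 2.21 ± 0.10, and *Uhrf1*, which guides it, was at 166, 161 and 164 CPM in WT myoblasts and 22.5, 13.7 and 11.6 CPM in WT FiMuSCs. The Polycomb enzymes moved in opposite directions: *Ezh2* was at 182, 150 and 177 CPM in myoblasts against 33.5, 25.5 and 26.1 CPM in FiMuSCs, and *Ezh1* at 11.8, 13 and 14.2 CPM against 159, 128 and 149 CPM. *Hmga2*, a chromatin protein of fetal and stem cells, was at 734, 647 and 674 CPM in myoblasts and 18.5, 4.36 and 1.29 CPM in FiMuSCs (6.42 ± 0.98). Of 24 members 16 rose and 8 fell.

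Interferon and antigen presentation genes were low in culture. Of 27 genes 23 fell in the edgeR test and none rose (median -3.13), and 0 were higher at an unadjusted p below 0.05 or with DESeq2. *H2-K1*, a class I heavy chain, was at 8.64, 13 and 14.2 CPM in WT myoblasts against 285, 224 and 194 CPM in WT FiMuSCs (-4.30 ± 0.25). *Gbp7*, an interferon-induced GTPase, fell by 7.37 ± 0.77. *B2m*, the light chain shared by class I molecules, was not called (-0.14 ± 0.14). Cytokine genes were split, with 10 of 27 higher and 10 lower: *Csf1*, the macrophage growth factor, was at 880, 755 and 1092 CPM in myoblasts against 54.6, 29.2 and 29.7 CPM in FiMuSCs, and *Ccl11* had 1 count over the myoblast libraries against 2.41 to 8.67 CPM in FiMuSCs, a pooled ratio of 867 (95% counting interval 156 to 34240).

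Markers of other cells moved with these decreases. CD45, CD31, SCA1 and CD11b were the markers excluded by both purifications. *Ptprc* (CD45) had no count in myoblasts against 8.17, 23.9 and 6.15 CPM in FiMuSCs (at least 716-fold lower, or 386-fold without FiMuSC library 2), *Itgam* (CD11b) was at 0 to 0.225 CPM against 4.70 to 20.8 CPM, *Pecam1* (CD31) at 8.28 to 35.2 CPM against 56.6 to 136 CPM, and *Ly6a* (SCA1) at 2.51 to 9.47 CPM against 6.65 to 14.4 CPM, the last not called (-0.84 ± 0.51). Of 20 leukocyte markers tested 17 fell and none rose in the edgeR test, also at an unadjusted p below 0.05, although *Laptm5* did without FiMuSC library 2. Of 16 endothelial markers all 16 fell, of 12 Schwann cell markers 11 fell, of 8 erythroid markers all 8 fell, of 13 pericyte markers 9 fell and 2 rose, and of 15 markers of fibro-adipogenic progenitors (FAPs) 10 fell and 2 rose. The leukocyte median was -8.17, and -7.09 with the 4 genes that had no count in myoblasts at their bound. With all 12 WT libraries scaled together, the leukocyte markers summed to 19.6 to 34.6 CPM in myoblasts and 127 to 675 CPM in FiMuSCs, highest in FiMuSC library 2, and the endothelial ones to 16.4 to 43.6 CPM and 235 to 355 CPM. Erythroid markers summed to 0.203 to 0.397 CPM in myoblasts and 153 to 564 CPM in FiMuSCs, highest in FiMuSC library 1. *Pdgfra*, the defining FAP gene, was at 0.805 to 1.94 CPM in myoblasts and 1.31 to 2.43 CPM in FiMuSCs and was not called. The largest FAP decrease was *Dpt*, dermatopontin, at 0.0749 to 0.170 CPM against 503 to 644 CPM. The part of other cells in the interferon, matrix, lipid and chemokine decreases was not tested.

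**Figure D3:**
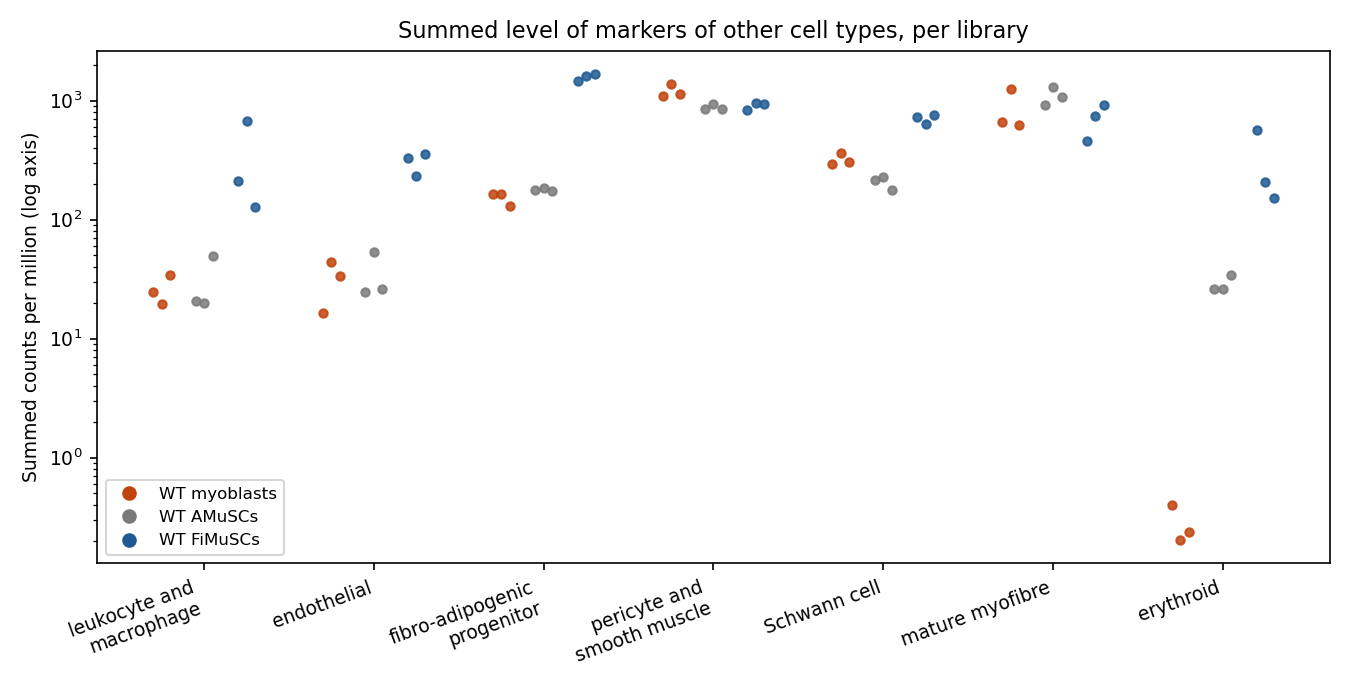
Summed CPM (log axis, 12 WT libraries scaled together) of markers of 7 other cell types in each library of WT myoblasts (red), WT AMuSCs (grey) and WT FiMuSCs (blue). Leukocyte, endothelial, FAP, Schwann and erythroid sums were highest in FiMuSCs. The FAP sum includes *Dpt*, whereas *Pdgfra*, *Lum* and *Mfap5* were low in FiMuSCs too. The pericyte sum, which includes *Des*, was highest in myoblasts (1090 to 1380 CPM, against 829 to 952 CPM in FiMuSCs), and the myofibre sums overlapped.

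The largest single changes lay outside the lists in many cases. Among the 12 largest increases, *Ptgs2*, cyclooxygenase 2, was at 371, 378 and 287 CPM in WT myoblasts and 2.71, 2.80 and 0.841 CPM in WT FiMuSCs (7.35 ± 0.47), and *Pla2g4a*, the phospholipase that releases its substrate arachidonic acid, at 149, 151 and 92.2 CPM and 1.47, 0.821 and 0.187 CPM (7.32 ± 0.59). Several others are best known from nerve cells: *Scn9a*, a sodium channel (7.29 ± 0.69), *Syn1*, synapsin (7.19 ± 0.54), and *Nefm*, a neurofilament, which varied from 8.74 to 73.6 CPM among the myoblast libraries against at most 0.223 CPM in FiMuSCs. The rest were *Dynap*, *Sct*, which encodes the hormone secretin, *Baalc*, *Dlx2*, *Disp2*, *Tnnt2* and *Myh3*, with log2 fold changes between 7.05 and 8.66.

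Of the 12 largest decreases, 5 had no count in any myoblast library. They were *S100a8*, a neutrophil gene (at least 3293-fold lower), *Angptl1* (at least 2278-fold), *Chil3* (at least 1771-fold), the chemokine gene *Ccl19* (at least 1262-fold) and *Hbb-bt*, a haemoglobin chain (at least 869-fold). *S100a8* and *Chil3* were highest in FiMuSC library 2, at 123 and 73.8 CPM, and without it their bounds were 1375-fold and 498-fold. Both lost the call without the filter on low counts (adjusted p = 0.0550 and 0.0837). *Hbb-bt* was highest in FiMuSC library 1, at 29.5 CPM, and its bound without it was 542-fold. *Nppc*, the C-type natriuretic peptide, and *Scara5*, a ferritin receptor, had 3 counts each over the myoblasts (pooled ratios 11440, interval 3914 to 55460, and 8652, interval 2960 to 41950), and *Klf15*, a glucocorticoid-induced factor, had 1 (7452, interval 1337 to 294300). *Tnxb*, tenascin X, was at 0.359, 0.112 and 0.0890 CPM in myoblasts against 1471, 1240 and 1302 CPM in FiMuSCs (-12.80 ± 0.41). *Msc*, musculin, a transcription factor of muscle progenitors, fell by 12.20 ± 0.45. These intervals and bounds cover counting error only.

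Large shifts in the share of a protein-coding transcript were counted under fixed limits, so their number depends on those limits. With at least 10 TPM in both groups, shares without overlap and means at least 50 percentage points apart, 9 of 5954 genes qualified, and 1 of 2689 at a minimum of 30 TPM. In *Filip1l*, a filamin-binding protein, transcript Filip1l-202 took 99.6, 99.2 and 99.8% of the TPM in WT myoblasts and 39.7, 40.6 and 43.1% in WT FiMuSCs. In *Gsn*, gelsolin, which cuts actin filaments, Gsn-201 took 10.8, 3.38 and 10.8% in myoblasts and 60.9, 58.8 and 60.9% in FiMuSCs. *Gsn* is also in the FAP list, and the part of other cells was not tested. Both genes were below 30 TPM in myoblasts (16.29 and 21.63 TPM). The 1 gene that passed at 30 TPM was *Ncam1*. Its 146-base transcript Ncam1-206 took 56.46, 86.95 and 61.01% in myoblasts and 6.50, 10.39 and 0% in FiMuSCs. No test of the shares was run, so these are values only, and with shares of estimated counts in place of TPM 24 genes qualified, of which 4 were among the 9.

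Activated MuSCs of injured muscle divide in the animal, and were compared with the cultured cells directly. Of 18528 genes tested, 5270 (28.4%) were higher in WT myoblasts than in WT AMuSCs and 5209 (28.1%) were lower. This comparison shares its myoblast libraries with the main one, so values are given side by side, with the 12 WT libraries scaled together. *Mki67* was at 286, 304 and 302 CPM in myoblasts, 680, 635 and 645 CPM in AMuSCs and 50.6, 31.5 and 22.2 CPM in FiMuSCs (myoblasts over AMuSCs -1.03 ± 0.06). Of 35 replication genes 2 were higher and 27 lower in myoblasts than in AMuSCs, with a median of -0.55, and of 31 mitosis genes 2 and 16. *Ccnb1* did not pass (0.01 ± 0.08, adjusted p = 0.901). *Fos* was at 8.36, 10.2 and 8.79 CPM in myoblasts, 293, 356 and 350 CPM in AMuSCs and 5473, 3482 and 1582 CPM in FiMuSCs, and *Hspa1a* at 2.69 to 5.03, 141 to 168 and 3032 to 6784 CPM. *Calcr* had 0.0507 to 0.225, 8.98 to 9.66 and 273 to 358 CPM.

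Other genes were far higher or lower in the cultured cells than in either sorted state. *Cdkn2a* was at 174, 109 and 106 CPM in myoblasts, 12.8, 15.2 and 20.7 CPM in AMuSCs and 4.83, 1.70 and 1.20 CPM in FiMuSCs (myoblasts over AMuSCs 3.11 ± 0.28), and *Mdm2* at 193 to 245, 81.4 to 90.1 and 45.6 to 59.1 CPM. *Ccnd2* was at 423 to 608 CPM in myoblasts, 3.10 to 24.1 CPM in AMuSCs and 4.17 to 15.1 CPM in FiMuSCs, and the ranges of AMuSCs and FiMuSCs overlapped. They overlapped also for *Wnt5a* (75.8 to 157, 0.760 to 2.42 and 0.891 to 2.24 CPM) and *Fn1* (1694 to 2650, 96.5 to 145 and 81.3 to 127 CPM). *Slc7a11* was at 55.8 to 70.4, 1.55 to 2.57 and 1.09 to 1.57 CPM. Of 19 p53 targets 13 were higher and 2 lower in myoblasts than in AMuSCs (median 1.33), and of 27 interferon genes 1 and 22 (median -1.87). *Grb10*, at 0.946 to 1.5, 562 to 654 and 279 to 713 CPM, and *Col1a2*, at 0.702 to 1.07, 644 to 792 and 69.8 to 150 CPM, were lower in myoblasts than in both. Among called genes with a mean log2 CPM of at least 3, the largest differences from AMuSCs were *Ptgs2* (7.41 ± 0.72), *Selp* (6.97 ± 1.13) and *Pla2g4a* (6.76 ± 0.71) upward and *Vgll2* (-10.04 ± 0.30), *Capn6* (-9.92 ± 0.44) and *Col1a2* (-9.66 ± 0.19) downward.

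**Figure D4:**
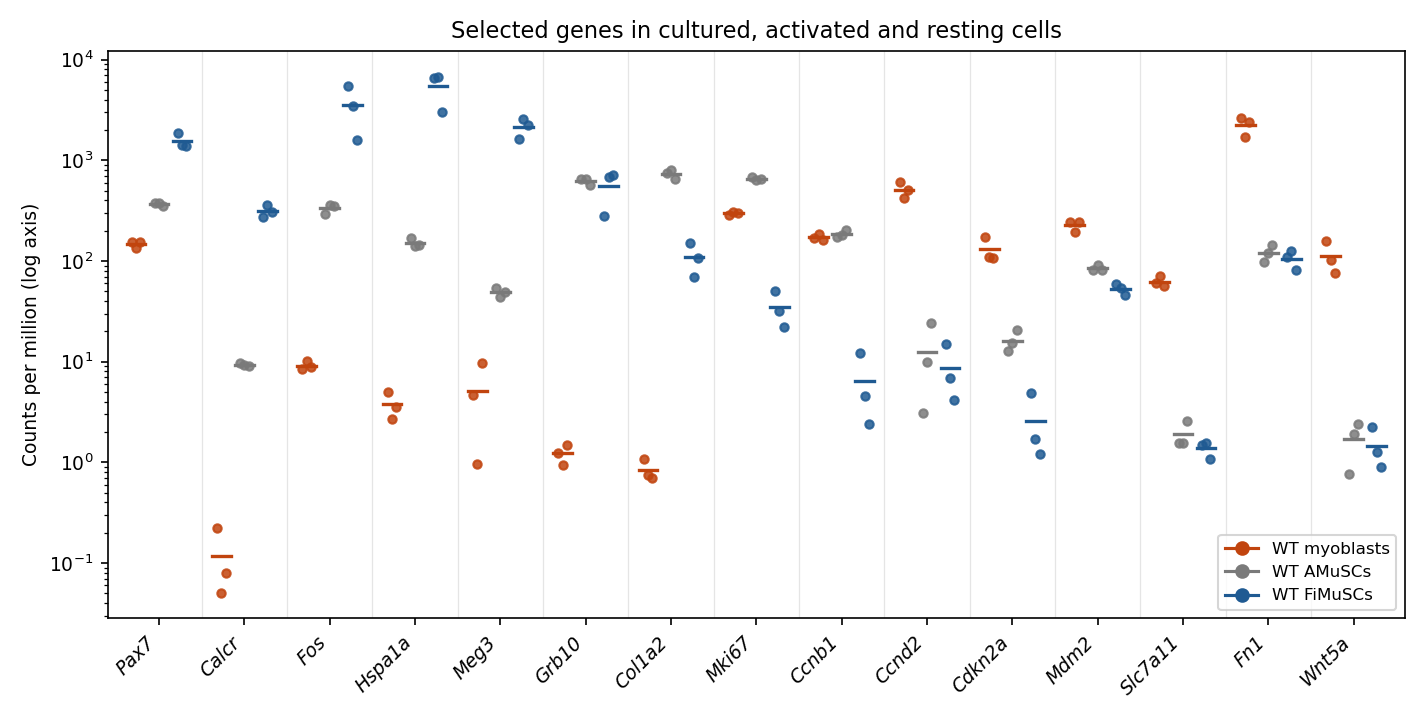
CPM (log axis, 12 WT libraries scaled together) of 15 genes in each library of WT myoblasts (red), WT AMuSCs (grey) and WT FiMuSCs (blue), with bars at the group means. *Ccnb1* overlapped between myoblasts and AMuSCs, *Fos*, *Hspa1a* and *Calcr* lay in between in AMuSCs, and *Ccnd2*, *Slc7a11*, *Fn1* and *Wnt5a* were higher in myoblasts than in both sorted states.

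The same contrast in *mdx* cells shares no library with the WT one. Of 19143 genes tested, 5844 (30.5%) were higher in *mdx* myoblasts than in *mdx* FiMuSCs and 5723 (29.9%) were lower. Among 18367 genes tested in both genotypes, 5287 were higher in culture in both, 79.3% of the WT list and 91.5% of the *mdx* list, and 4843 were lower in both, 68.1% and 88.6%. Genes called in opposite directions numbered 36 and 22. All 31 mitosis genes rose in *mdx* as well (median 3.52), and 22 of 30 quiescence genes fell (median -2.81). The difference itself was called for 849 of 20842 genes (4.07%), 423 of them with a larger value in *mdx*, and the count ran from 274 to 1305 when single libraries were left out.

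For some of the genes whose decrease was smaller in *mdx*, *mdx* myoblast library 2 stood far above its partners. *Tnxb* was at 0.220, 89.2 and 2.49 CPM in *mdx* myoblasts 1, 2 and 3 and 233 to 260 CPM in *mdx* FiMuSCs, against 0.0896 to 0.368 CPM in WT myoblasts and 1252 to 1466 CPM in WT FiMuSCs, with all 4 groups scaled together (difference 9.79 ± 2.32, adjusted p = 0.0477). Without that library the difference was 5.21 (adjusted p = 0.0272), and 627 genes were called. The *Tnxb* call was lost without any 1 of 9 other libraries (adjusted p up to 0.131). In the other direction, *Bend6* was at 22.6 to 27 CPM in *mdx* myoblasts and 10.7 to 12.8 CPM in *mdx* FiMuSCs, against 16.6 to 32.5 CPM in WT myoblasts and 0.214 to 0.445 CPM in WT FiMuSCs, with the *mdx* FiMuSCs above the WT ones in every library (difference -5.29 ± 0.39, adjusted p = 0.000213).

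**Figure D5:**
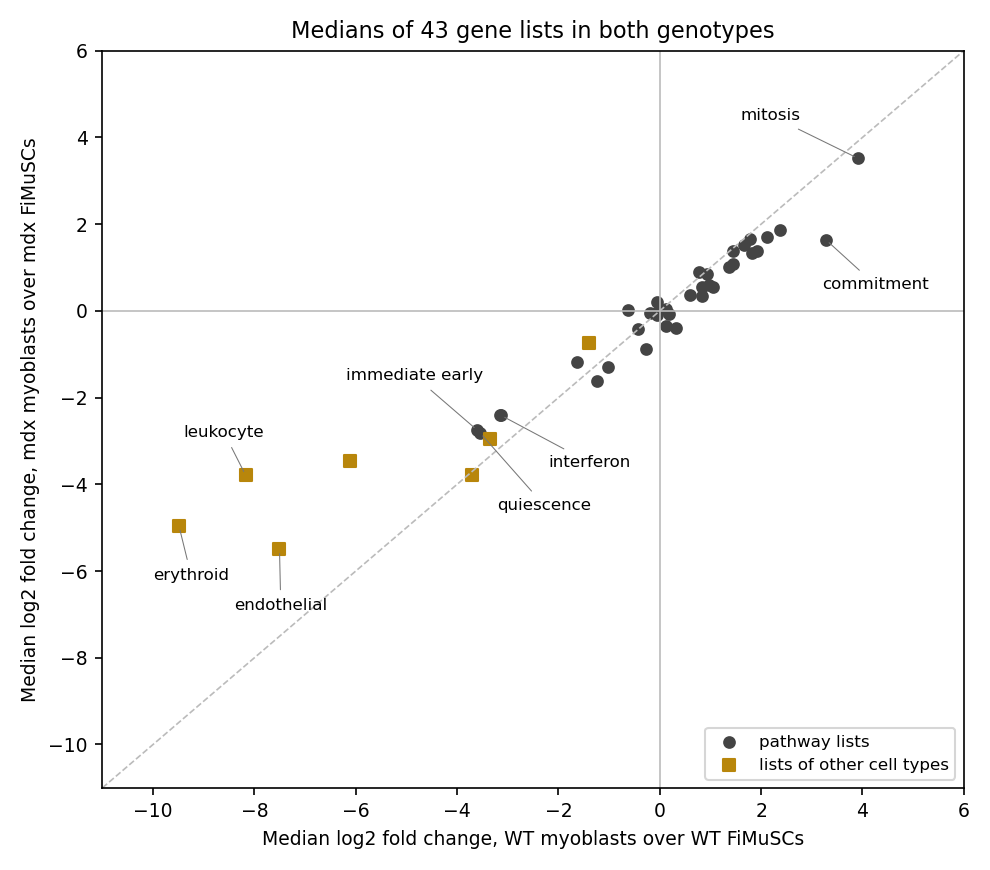
Median log2 fold change of myoblasts over FiMuSCs in WT (x axis) and *mdx* (y axis) for 36 pathway lists (circles) and 7 lists of other cell types (squares), with the line of equal values dashed. Mitosis was at 3.91 and 3.52, quiescence at -3.55 and -2.81, and the leukocyte and erythroid lists at -8.17 and -9.49 in WT against -3.79 and -4.97 in *mdx*. In *mdx* 4 of 21 leukocyte and 7 of 8 erythroid markers were called lower, against 17 of 20 and 8 of 8 in WT. The test of the difference between genotypes called 0 of 22 leukocyte and 0 of 8 erythroid markers, so no difference is shown for these lists. Medians are fitted ones, and the WT leukocyte median was -7.09 with genes of no count at their bound.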

How the data were processed

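Polyadenylated RNA was made into directional libraries by the authors, who quantified transcripts with Salmon 0.13.1 (GRCm38, per the submitters' processing notes, which also name DESeq2). The deposited tables hold an estimated count, as the authors' Salmon run gave it, a TPM and an effective length (a score in bases that the authors' Salmon run assigned) per transcript. Here estimated counts were summed per gene and rounded, and 53355 of 53392 genes were matched to GENCODE M21 by identifier without version. Genes passing edgeR's filterByExpr were tested with edgeR 4.0.16 (TMM scaling, robust quasi-likelihood fit, two-sided, Benjamini-Hochberg adjustment over all genes tested, threshold 0.05) in R 4.3.3, with only the groups compared in a fit. CPM (counts relative to library size) are TMM-scaled, errors of fold changes are SE, and n = 3 libraries per group. DESeq2 1.42.0, other scalings, filters, a length offset, thinned counts and leaving out each library were alternatives. Deposited TPM gave the transcript shares.

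Named genes were the 12 largest increases and decreases among called genes without overlap (mean log2 CPM of at least 3, no predicted loci), 5 per direction for the difference between genotypes, 8 for the AMuSC comparison, core genes of the lists, the 3 largest changes per direction in each list, and every marker of other cell types. The 43 gene lists and the comparison itself were chosen with earlier results of these data known. No labels give batches. Replicates correlated at a Spearman rho of 0.982 to 0.987, and no pair was a duplicate. Genes with no count in a group were given a floor of 3 counts over that group, and 95% intervals of ratios are exact and cover counting error only. A few members of the lists are counted but not reported here by name.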

Additional observations from a re-analysis of the deposited data

Results flagged for a closer look

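For 10 genes, chosen by the size of the difference, the change of myoblasts over FiMuSCs differed between *mdx* and WT by an interaction test (log2, *mdx* minus WT, edgeR adjusted p up to 0.0499). The difference was positive for *Slc22a3* (10.96), an organic cation transporter, *Nppc* (10.65), *Tnxb* (9.79), *Lamc3* (9.04), a laminin chain, and *Cacna1d* (8.16), a calcium channel. For these 5 genes *mdx* myoblast library 2 was the highest of the *mdx* myoblasts, and without it the differences were 5.17 for *Slc22a3*, 5.66 for *Nppc*, 4.16 for *Lamc3* and 4.67 for *Cacna1d*, none of these 4 called. For *Tnxb* the difference was 5.21 and still called. The calls of these 5 genes also depended on other libraries: each was lost without any 1 of 9 or more of the 12, at folds mostly near the full ones (*Nppc* 10.57 without *mdx* FiMuSC library 2, adjusted p = 0.120), and with the replicate block (adjusted p up to 0.119). *Nppc* rests on 3 counts over the WT myoblasts. The difference was negative for *Ereg* (-6.50), the growth factor epiregulin, *Bend6* (-5.29), *Has1* (-5.13), a hyaluronan synthase, *Ifi211* (-4.68) and *Cacng1* (-4.28), a muscle calcium channel subunit. Of these 5, *Has1* lost its call without any 1 of 10 libraries, with the replicate block (adjusted p = 0.103) and without the filter, and *Cacng1* without any 1 of 4 libraries, while *Ereg*, *Bend6* and *Ifi211* kept theirs in all alternatives run. *Has1* was at 1.37 to 3.36 CPM in *mdx* myoblasts and 3.58 to 37.8 CPM in *mdx* FiMuSCs, against 1.68 to 3.48 CPM in WT myoblasts and 0.191 to 1.58 CPM in WT FiMuSCs.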

How the results depend on the processing

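The WT count of 14365 genes ran from 13316 with a transcript length offset to 15005 without a filter over all genes (11338 of 14702 with protein-coding genes only), and from 13584 to 14039 with single libraries left out, and was 7730 against a 2-fold change. Of the 14365 genes, 12890 or more kept their call and direction except with the 2-fold test (7730) and with protein-coding genes only (10791), and 9 were called in the opposite direction with the length offset. The *mdx* count (11567) ran from 8682 to 11806 and the AMuSC count (10479) from 8925 to 10161 with libraries left out. The genotype difference (849) gave 2408 genes with DESeq2, and 274 to 1305 with libraries left out. Isoform changes (9 genes) were 1 at 30 TPM and 24 with count shares. Replicate numbers did not pair the samples in the WT contrast, where correlations of same-numbered deviations were -0.006, 0.016 and 0.012. Against AMuSCs they were 0.0973, 0.302 and 0.0207, and -0.285 to 0.185 between libraries of different number, so pairing is unclear there. In that comparison the replicate block added calls for *Myh3*, *Acta1*, *Ckm* and *Atp2a1*, among others, and removed those of *Rrm2*, *Ldha* and *Utrn*. With the replicate block 13435 genes were called in WT, 9239 in *mdx*, 9612 against AMuSCs and 500 for the genotype difference. Of 415 selected genes, 2 reversed, *Polr1b* (-0.22) and *Cry1* (-0.12), both with the length offset and neither called there, and 56 of the 385 called lost the call under at least 1 of 17 alternatives. Depth limits the genes at 3 counts or fewer in a group, whose fold changes are bounds or ratios with wide intervals, and 3 libraries per group limit every test.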

Other observations

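DNA repair and proteasome genes were mostly higher in WT myoblasts, and autophagy genes moved in both directions. Of 25 repair and checkpoint genes 22 were higher and 2 lower than in WT FiMuSCs (median 1.79). *Brca1*, of homologous recombination, was at 69.3, 64.7 and 68.8 CPM in myoblasts against 5.51, 3.79 and 2.95 CPM in FiMuSCs (4.05 ± 0.23). The 2 lower members were *Fancd2* (-0.78 ± 0.11) and the kinase gene *Atr* (-0.33 ± 0.11), and *Atr* lost its call without any 1 of 4 of the libraries. All 26 proteasome genes were higher (median 1.44), with *Psmd14*, a deubiquitinase of the lid, at 184, 184 and 167 CPM in myoblasts against 44.3, 40.6 and 39.5 CPM in FiMuSCs. Of 28 genes of autophagy, lysosome and FoxO, 10 were higher and 16 lower, or 5 and 6 against a 2-fold change. The higher share was near the background of 35.1%. In proportion, the counts against a 2-fold change were near the 3140 higher and 4590 lower of all 19329 genes. *Fbxo32* (atrogin-1), a ubiquitin ligase of atrophy, was at 106, 102 and 146 CPM in myoblasts against 32.7, 17.6 and 20.3 CPM in FiMuSCs.

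Genes of the nerve-muscle junction and of calcium handling moved in both directions. *Chrng*, the fetal subunit of the acetylcholine receptor, was at 123, 158 and 135 CPM in WT myoblasts and 6.21, 1.92 and 0.678 CPM in WT FiMuSCs (5.57 ± 0.74), and *Chrnd* rose by 4.79 ± 0.41. *Ryr3*, a ryanodine receptor, was at 0.196 to 0.449 CPM in myoblasts against 310 to 387 CPM in FiMuSCs (-10.05 ± 0.26), and *Ryr1*, the main isoform of adult muscle, was at 85.9 to 158 CPM in myoblasts and 53.4 to 63.3 CPM in FiMuSCs (0.93 ± 0.25). *Cacna1s*, the voltage sensor of muscle, was highest in myoblast library 2, at 5.60, 41.9 and 8.86 CPM, against 0.526 to 1.14 CPM in FiMuSCs. Of 26 members 15 were higher and 6 lower, or 8 and 3 against a 2-fold change. Among 16 myofibre markers 4 were higher and 8 lower, and 5 were lower against a 2-fold change. *Mybpc2*, of fast fibres, had no count in myoblasts against 1.66 to 2.48 CPM in FiMuSCs (at least 115-fold lower), and *Pvalb*, parvalbumin, had 1 count against 2.44 to 4.4 CPM in FiMuSCs (pooled ratio 546, 95% counting interval 97.9 to 21550). *Laptm5*, a leukocyte lysosomal gene, was at 13.7 to 30.4 CPM in myoblasts and 5.31 to 17.9 CPM in FiMuSCs, not called with all libraries (1.03 ± 0.53) and called higher without FiMuSC library 2 (1.75, adjusted p = 0.0102).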
